A study of Mus musculus with 23 samples.

Results

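Tuft cells are rare chemosensory cells of the intestinal epithelium, and the genes described here are 6 that mark them: Dclk1, Trpm5, Il25, Gfi1b, Pou2f3 and Gnat3. The rule lists them by gene name. Of the 6 genes, 5 had at least 1 probe set annotated to them alone, out of 18194 genes measured in that way, and these 5 held 15 of the 34958 probe sets that name 1 gene. Where a gene had several, the one of highest mean across the 23 arrays is called its main probe set, and the other probe sets are described beside it.

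Colon RNA of BALB/c mice was hybridised to Affymetrix arrays, 1 per sample and 23 in all. The groups were TNBS-treated Fn14 knockout (n = 7), untreated Fn14 knockout (n = 5), TNBS-treated wild type (n = 6) and untreated wild type (n = 5), all on the BALB/c strain. The gene Tnfrsf12a encodes Fn14, to which the cytokine TWEAK binds, and the hapten TNBS, given into the rectum with ethanol, brings on colitis. TNBS at 0.2% was given by the rectal route over 6 weeks, at 1.0 ul per g of body weight at the start and 2.0 ul per g at the end, and the colon was taken 3 days after the last dose. The labels state neither whether the untreated groups received ethanol nor the age of the animals, so a TNBS difference below also covers the solvent and the procedure. Nor do they say that each numbered sample is a separate animal, and p-values measure only how far these samples spread.

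Pou2f3 is the transcription factor without which tuft cells do not form in mice, and Gfi1b is a second transcription factor of these cells. Tuft cells sense luminal compounds through a pathway shared with taste cells, in which the G protein subunit encoded by Gnat3 and the cation channel encoded by Trpm5 take part. They are the main epithelial source of the cytokine IL-25, encoded by Il25, which acts on type 2 innate lymphoid cells, and these cells in turn release IL-13, which increases tuft and goblet cells. Dclk1 encodes a microtubule-binding kinase that is the usual histological marker of tuft cells in mice and is also expressed in neurons.

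Levels are the log2 values that the authors deposited, and 27.9% of all values stood at the lowest one, 2.17, called the floor here. Tnfrsf12a, read as a check of the genotype labels, lay between 3.84 and 4.17 on the knockout arrays and between 5.86 and 8.25 on the wild-type arrays. Precision is limited by how many arrays each group had. In whole colon, fewer cells of a type and less RNA per cell cannot be told apart.

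The promoters of the genes with a usable signal are given from RefSeq on build GRCm38.p6, since Dclk1 was read by several probe sets that did not move together and has 2 annotated starts, 219364 bases apart. Each run holds 250 bases before and 50 bases from the annotated start of a transcript, read along the gene, and capitals mark those last 50 bases.
Dclk1, upstream start, chr3:55242114-55242413, plus strand: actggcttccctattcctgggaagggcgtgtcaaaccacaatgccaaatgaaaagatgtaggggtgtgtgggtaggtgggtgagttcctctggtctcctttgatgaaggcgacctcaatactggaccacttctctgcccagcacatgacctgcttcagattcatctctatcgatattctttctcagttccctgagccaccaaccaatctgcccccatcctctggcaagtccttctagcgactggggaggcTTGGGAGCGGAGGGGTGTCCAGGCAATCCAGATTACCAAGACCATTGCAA
Dclk1, downstream start, chr3:55461478-55461777, plus strand: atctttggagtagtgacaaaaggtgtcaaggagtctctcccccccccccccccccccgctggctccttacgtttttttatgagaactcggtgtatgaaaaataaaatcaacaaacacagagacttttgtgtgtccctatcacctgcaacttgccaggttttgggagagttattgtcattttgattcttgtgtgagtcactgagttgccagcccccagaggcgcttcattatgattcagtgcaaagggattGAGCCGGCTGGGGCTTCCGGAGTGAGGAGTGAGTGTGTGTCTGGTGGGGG
Trpm5, chr7:143094593-143094892, minus strand: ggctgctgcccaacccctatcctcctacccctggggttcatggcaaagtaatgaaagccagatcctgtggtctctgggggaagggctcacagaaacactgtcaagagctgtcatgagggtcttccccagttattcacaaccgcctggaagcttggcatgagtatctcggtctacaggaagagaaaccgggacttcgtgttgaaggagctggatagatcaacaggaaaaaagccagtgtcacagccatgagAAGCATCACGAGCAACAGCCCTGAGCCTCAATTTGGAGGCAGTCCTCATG
Which of the Dclk1 starts gives the transcripts that each probe set reads was not given in the sources used here. Promoter entries existed for 4 of the 6 genes, in 5 windows, and Il25 and Pou2f3 were without one. The octamer bound by POU factors, ATGCAAAT, was searched on either strand and was found in 0 of the 5 windows, against 570 of 32851 promoters of the same length (1.74%). These letters were therefore absent from these windows, which says nothing about the factor.

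The factors and the cytokine that define tuft cells were not measurable above the floor. Il25 was at the floor on all 23 arrays and Pou2f3 on 22, with a highest value of 2.1721 on the remaining array. Gfi1b was at the floor on 20 arrays, with a highest value of 2.2214. For each of these genes there was 1 probe set, and those of Il25 and Gfi1b were designed from a RefSeq transcript of the gene. Gnat3 had no probe set of its own and was not analysed here. At the floor a gene can be absent or below what its probes detect, and no order between groups can be read from it.

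Other cell types that use these factors were looked at beside them. Pou2f3 is also active in keratinocytes, and the 11 measured genes of a squamous epithelium list summed to between 48.1 and 97.8 log2 units on TNBS-treated knockout arrays, between 35.9 and 67.3 on untreated knockout arrays, between 51.3 and 86.4 on TNBS-treated wild-type arrays and between 32.7 and 46.6 on untreated wild-type arrays, while Pou2f3 stayed at the floor on all knockout arrays and all untreated wild-type arrays. Gfi1b also acts in megakaryocytes and erythroid cells. Of 10 measured genes of that list, Itga2b and Klf1 were at the floor on all arrays, and the list summed to between 28.5 and 33.1 in TNBS-treated knockout, 27.7 and 31.2 in untreated knockout, 29.4 and 33.5 in TNBS-treated wild-type and 28.1 and 31.4 in untreated wild-type colon.

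**Figure D1:**
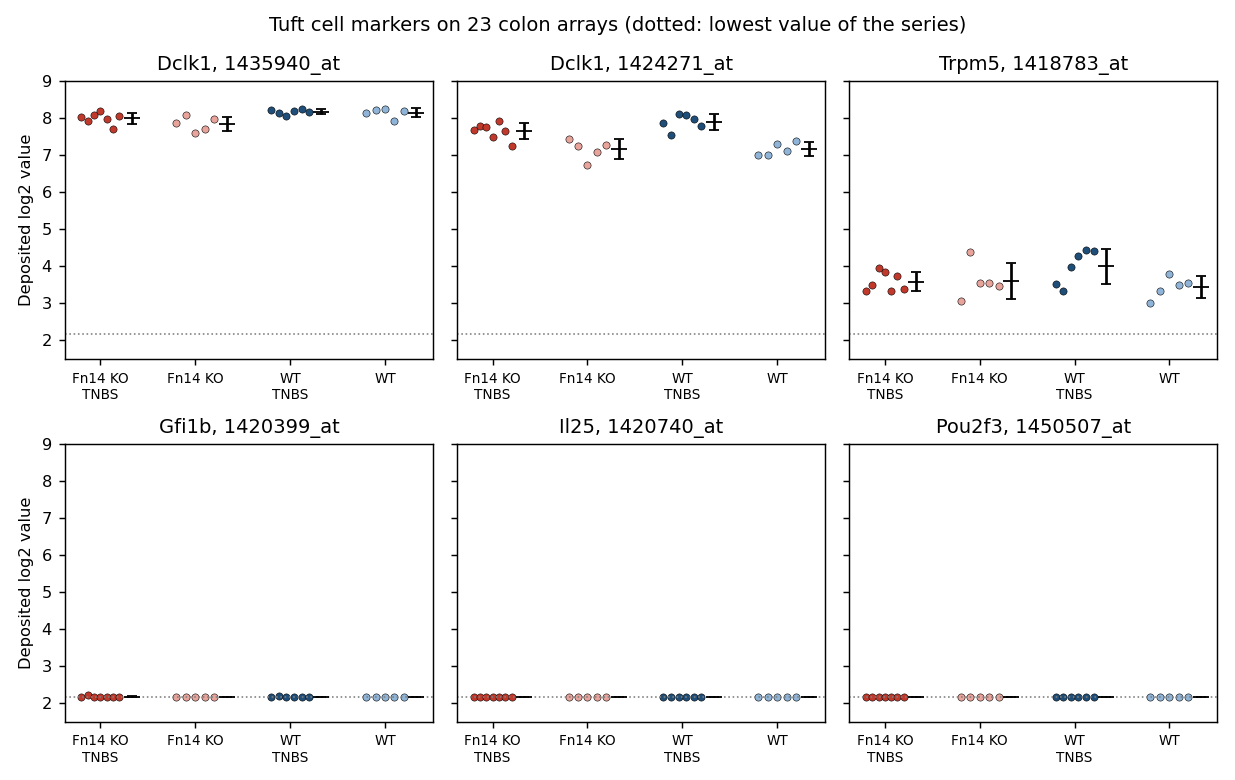
Deposited log2 value (y axis) of the 5 measured tuft cell markers on each of 23 colon arrays, by group (x axis), with a second Dclk1 probe set; points are arrays, bars are the group mean and SD, and the dotted line is the lowest value of the series. Il25, Gfi1b and Pou2f3 lie at the dotted line, while Dclk1 probe set 1424271_at is higher on TNBS-treated arrays, at 7.55 to 8.10 in wild type against 7.004 to 7.39 without TNBS.

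Trpm5, the channel that turns receptor activation into a change of membrane potential, had a low but variable signal. On its main probe set, 1418783_at, the lowest, median and highest values were 3.34, 3.50 and 3.95 in TNBS-treated knockout colon, against 3.06, 4.39, 3.55, 3.55 and 3.48 on the 5 untreated knockout arrays. They were 3.34, 4.13 and 4.44 in TNBS-treated wild-type colon, against 3.00, 3.34, 3.81, 3.50 and 3.55 on the 5 untreated wild-type arrays. Of the 6 TNBS-treated wild-type arrays, 4 lay above every untreated wild-type array and the other 2 lay within their range, while in the knockout 1 untreated array was the highest of its genotype.

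Group means of Trpm5 were 3.58 ± 0.25 in TNBS-treated knockout (SD, n = 7), 3.61 ± 0.48 in untreated knockout (n = 5), 3.997 ± 0.47 in TNBS-treated wild-type (n = 6) and 3.44 ± 0.30 in untreated wild-type colon (n = 5). The mean was highest in TNBS-treated wild-type colon, and the ranges of all groups overlapped, so no neighbours in the order of means were separated. With TNBS, Trpm5 differed by -0.02 ± 0.22 (SE) in the knockout (limma adjusted p = 1) and by 0.56 ± 0.23 in wild type (95% interval 0.08 to 1.04, limma adjusted p = 0.111), and neither passed the threshold of 0.05 after Benjamini-Hochberg adjustment over all genes. The TNBS differences of the genotypes differed by -0.58 ± 0.32, knockout minus wild type (limma adjusted p = 0.408). Without TNBS-treated wild-type replicate 2, the lowest of its group, the wild-type difference was 0.69 and passed (limma adjusted p = 0.0408). Knockout minus wild type was -0.41 ± 0.21 with TNBS (limma adjusted p = 0.253) and 0.16 ± 0.24 without it (limma adjusted p = 0.883).

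The other probe sets of Trpm5 carried little information. Probe set 1443413_s_at stood at the same value, 2.91, on 15 of 23 arrays, and its TNBS differences were 0.10 ± 0.08 in the knockout and 0.11 ± 0.08 in wild type (limma adjusted p = 0.563 and 0.488 over all probe sets). Probe set 1449224_at had a mean of 2.18 over all arrays, close to the floor.

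Dclk1, the kinase used to stain tuft cells, was well above the floor on its main probe set, 1435940_at, and TNBS did not change it past the threshold in either genotype. The lowest, median and highest values were 7.72, 8.03 and 8.20 in TNBS-treated knockout colon, against 7.87, 8.07, 7.61, 7.72 and 7.97 on untreated knockout arrays. They were 8.05, 8.19 and 8.24 in TNBS-treated wild-type colon, against 8.13, 8.22, 8.25, 7.93 and 8.19 on untreated wild-type arrays. TNBS-treated and untreated arrays overlapped in each genotype. Without TNBS 3 of 5 knockout arrays lay below the lowest wild-type array.

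The means of that probe set were 7.995 ± 0.15 in TNBS-treated knockout, 7.85 ± 0.19 in untreated knockout, 8.17 ± 0.07 in TNBS-treated wild-type and 8.15 ± 0.13 in untreated wild-type colon (SD, n = 7, 5, 6 and 5). The order of means put the wild-type groups above the knockout groups, and each group overlapped with its neighbour in that order. TNBS minus untreated was 0.15 ± 0.08 in the knockout (limma adjusted p = 0.301) and 0.03 ± 0.08 in wild type (limma adjusted p = 1), the second being -0.05 with each array centred on its median. Knockout minus wild type was -0.30 ± 0.09 without TNBS (95% interval -0.48 to -0.12), which just missed the threshold (limma adjusted p = 0.0533), and -0.18 ± 0.08 with TNBS (limma adjusted p = 0.164). The untreated difference passed in 8 of 39 alternatives, among them a filter on dim probe sets (limma adjusted p = 0.036), centring each array on its median (0.0311), and leaving out untreated wild-type replicate 4 (0.0322), untreated knockout replicate 2 (0.0308) or 5 (0.0482), or TNBS-treated knockout replicate 4 (0.0467) or 6 (0.035). With the mean over all 9 Dclk1 probe sets it was -0.04 (limma adjusted p = 0.827). The TNBS differences of the genotypes differed by 0.12 ± 0.12 (limma adjusted p = 0.704).

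Other Dclk1 probe sets gave smaller or opposite differences between the untreated genotypes. Knockout minus wild type without TNBS was -0.03 ± 0.11 for 1450863_a_at, -0.01 ± 0.14 for 1424271_at, -0.12 ± 0.15 for 1436659_at, -0.19 ± 0.10 for 1424270_at, 0.12 ± 0.13 for 1451289_at and 0.13 ± 0.11 for 1446190_at, and none passed (lowest limma adjusted p = 0.369 over all probe sets). With TNBS, knockout minus wild type was -0.31 ± 0.13 for 1436659_at, -0.25 ± 0.12 for 1424271_at and -0.18 ± 0.09 for 1424270_at. For 1450863_a_at it was -0.08 ± 0.09, for 1451289_at 0.07 ± 0.11 and for 1446190_at 0.09 ± 0.10. None of these passed (lowest limma adjusted p = 0.158 over all probe sets). Within arrays, 1450863_a_at minus 1435940_at was -0.25 ± 0.07 in untreated knockout and -0.52 ± 0.16 in untreated wild-type colon (SD, n = 5 each). The gap was 0.27 (two-sided exact permutation p = 0.00794, the smallest this design can give, adjusted 0.0794 over the 20 such tests). Skeletal muscle genes also differed between the untreated genotypes in these samples. Of 8 measured, 3 were higher in the knockout, all 8 had an unadjusted p under 0.05, and the median log2 difference was 2.99. Over all 18194 genes 531 passed and were higher there, and 3424 had an unadjusted p under 0.05. With TNBS 0 of the 8 passed, while over all genes 679 were higher in the knockout and 1223 lower. Of the 8, 6 had an unadjusted p under 0.05, against 4206 of all genes, and the median was 1.79. The list summed to between 42.7 and 66.4 in TNBS-treated knockout, 46.2 and 65.3 in untreated knockout, 27.1 and 56.6 in TNBS-treated wild-type and 25.0 and 40.9 in untreated wild-type colon, with no gene at the floor on all arrays. The part of skeletal muscle in the Dclk1 difference was not tested.

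A different picture came from other probe sets of Dclk1, of which there were 9 in all. Probe set 1424271_at had lowest, median and highest values of 7.25, 7.69 and 7.93 in TNBS-treated knockout colon, against 7.44, 7.26, 6.73, 7.08 and 7.28 on untreated knockout arrays. It had 7.55, 7.92 and 8.10 in TNBS-treated wild-type colon, against 7.02, 7.004, 7.31, 7.11 and 7.39 on untreated wild-type arrays. All 6 TNBS-treated wild-type arrays lay above all 5 untreated ones, whereas in the knockout the groups overlapped, with TNBS-treated replicate 7 within the untreated range.

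Tested over all probe sets, 1424271_at rose with TNBS by 0.49 ± 0.13 in the knockout (95% interval 0.23 to 0.76, limma adjusted p = 0.0247) and by 0.73 ± 0.13 in wild type (0.45 to 1.01, limma adjusted p = 0.00103). The difference between those effects was -0.24 ± 0.18 (limma adjusted p = 0.643), with an interval of -0.62 to 0.15. Probe set 1436659_at rose in wild type by 0.51 ± 0.14 (limma adjusted p = 0.02) and differed by 0.33 ± 0.14 in the knockout (limma adjusted p = 0.171). Probe set 1451289_at, with a mean of 3.90, had differences of 0.31 ± 0.12 in the knockout (limma adjusted p = 0.126) and 0.37 ± 0.12 in wild type, where it passed narrowly (limma adjusted p = 0.0498) and was lost in 26 of 37 alternatives. Probe set 1424270_at differed by 0.28 ± 0.10 in the knockout and 0.27 ± 0.10 in wild type (limma adjusted p = 0.0854 and 0.0782), and it stood at the same value of 6.13 on 7 of 23 arrays. Probe set 1450863_a_at, with a mean of 7.61, differed by -0.02 ± 0.10 in the knockout and 0.03 ± 0.10 in wild type (limma adjusted p = 1 for each). The other 3 probe sets had means of 2.17 to 2.39 and no difference that passed.

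The increase of 1424271_at in the knockout was the less stable call. It was lost without untreated knockout replicate 3 (0.39, limma adjusted p = 0.082) or 4 (0.47, 0.0602), with only the compared groups in the fit (0.49, 0.0825), and with the Gapdh difference between 3' and 5' probe sets, a measure of RNA quality, as a covariate (0.47, 0.101). The covariate fits with cell type lists are given below. In wild type it passed with each array left out in turn (0.69 to 0.80, highest limma adjusted p = 0.00443). That of 1436659_at in wild type was lost without untreated wild-type replicate 2 (0.41, limma adjusted p = 0.0659) and with the epithelial list (0.32, 0.426), the squamous list (0.30, 0.375) or the mast cell list as a covariate, the last with the sign turned (-1.12, 0.934). It kept its call with the neuron list (0.51, 0.042) and the smooth muscle list (0.48, 0.048).

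**Figure D2:**
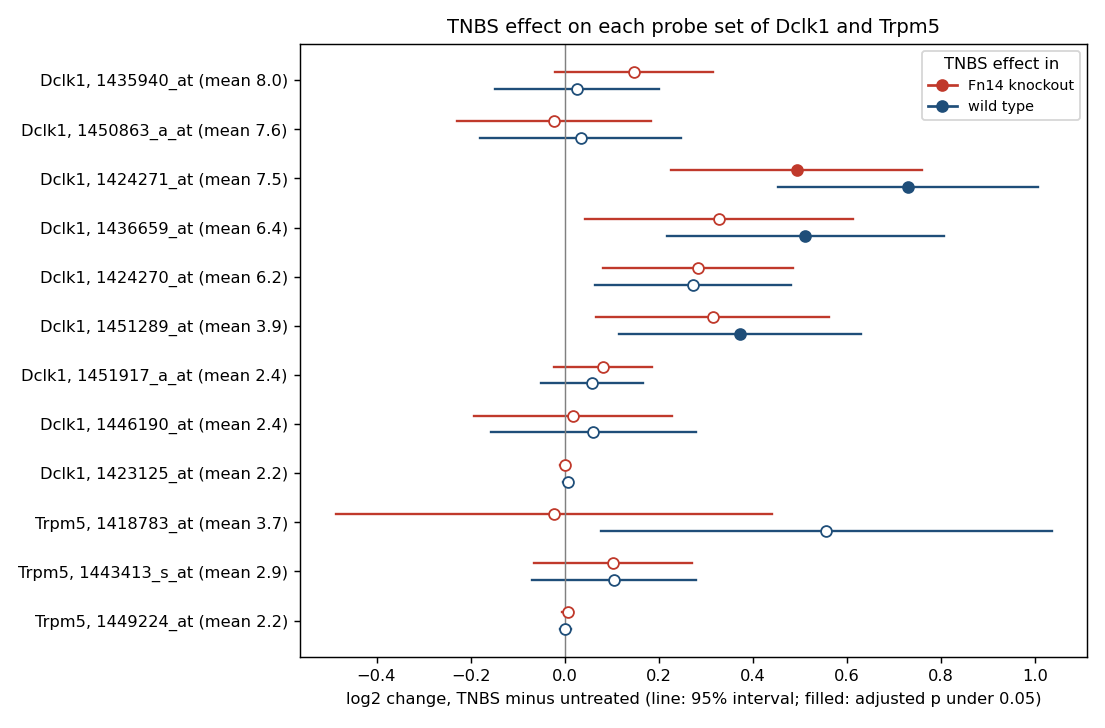
Log2 difference, TNBS minus untreated (x axis), for each probe set of Dclk1 and Trpm5 (y axis, with its mean over all arrays) in Fn14 knockout and wild-type colon; points are limma estimates over all 23 arrays, lines 95% intervals, and filled points have an adjusted p under 0.05 over all probe sets. Dclk1 probe set 1424271_at is filled in both genotypes, at 0.49 in the knockout and 0.73 in wild type, while the main probe set 1435940_at is at 0.15 and 0.03.

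The disagreement between Dclk1 probe sets was examined within arrays. The value of 1424271_at minus that of 1435940_at was -0.34 ± 0.31 in TNBS-treated (SD, n = 7) and -0.69 ± 0.18 in untreated knockout colon (n = 5; exact permutation p = 0.053, two-sided). It was -0.27 ± 0.23 in TNBS-treated (n = 6) and -0.98 ± 0.18 in untreated wild-type colon (n = 5), a gap of 0.70 between the groups (exact permutation p = 0.00433, two-sided, the smallest this design can give). After Benjamini-Hochberg adjustment over the 20 such exact permutation tests made, the wild-type value was 0.0794 and none passed. Since its unadjusted p was already the smallest possible, no wider separation could have brought this test past 0.05 by itself. Its failure to pass therefore decides little. Such a difference within an array shows unequal change of the probe sets and not that either was constant.

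Around their group means some Dclk1 probe sets moved together more than others. Pearson's r over 23 arrays, with each group's mean subtracted, was 0.72 between 1435940_at and 1450863_a_at. It was 0.70 between 1424271_at and 1436659_at, 0.58 between 1424271_at and 1424270_at, and 0.46 between 1436659_at and 1424270_at. Between the first 2 and these 3 probe sets it ran from -0.10 to 0.35. The dim 1451289_at correlated at 0.30 to 0.40 with these 3 and at -0.22 and -0.14 with the first 2, so the ranges within and between overlapped and the probe sets did not divide cleanly. The probe sets 1424271_at, 1424270_at and 1451289_at were designed from the same source sequence, and whether they read the same transcripts was not tested. The arrays share their normalization, and these correlations are descriptions.

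**Figure D3:**
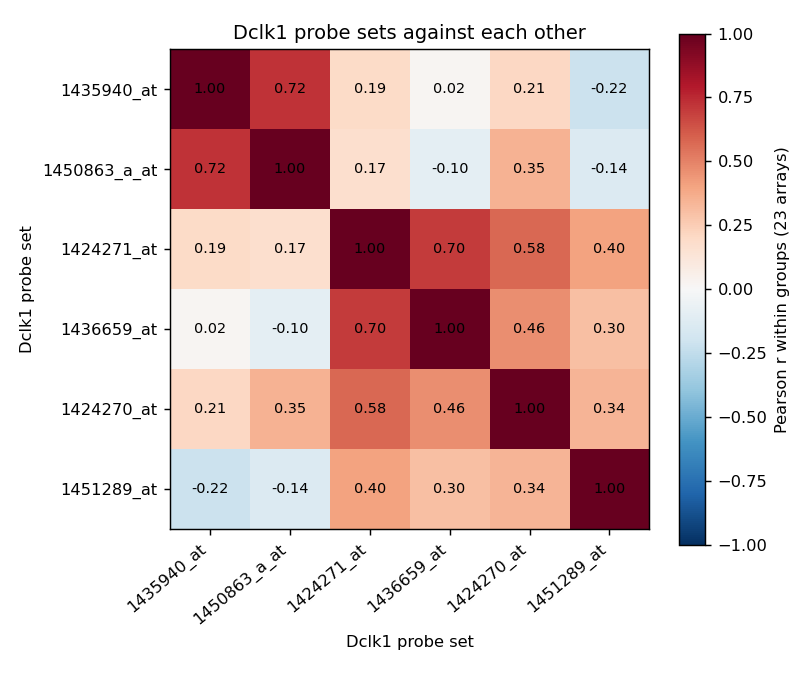
Pearson correlation (colour and printed value) between 6 Dclk1 probe sets over 23 arrays after subtracting each group's mean; both axes list the probe sets by their mean level. The probe sets 1435940_at and 1450863_a_at correlate at 0.72 and the others mostly with each other, up to 0.70 between 1424271_at and 1436659_at.

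Markers of other cell types were read with TNBS in the same samples, where 4.08% of all genes rose and 4.47% fell in the knockout and 10.2% rose and 6.27% fell in wild type. Of 11 mast cell genes 8 rose and 1 fell in the knockout and 9 rose in wild type. Of 11 squamous genes 3 rose in the knockout and 4 in wild type, with median log2 differences of 2.63 and 2.76, and their sums are given above. The mast cell list summed to between 67.0 and 79.0 log2 units in TNBS-treated and between 33.1 and 36.7 in untreated knockout colon. In wild-type colon the mast cell list summed to between 80.3 and 89.2 with TNBS and between 33.2 and 38.1 without it. No mast cell gene was at the floor on all arrays. Of 9 neuron genes 1 fell in each genotype, Snap25, by 0.47 on the log2 scale (limma adjusted p = 0.0194 in the knockout and 0.013 in wild type), and the list summed to between 62.3 and 71.2 in TNBS-treated and between 66.3 and 72.3 in untreated knockout colon, and to between 63.0 and 67.8 in TNBS-treated and between 67.1 and 69.7 in untreated wild-type colon. Of 10 general epithelial genes 2 fell in each genotype, and their sum lay between 127.0 and 128.0 in TNBS-treated and 128.0 and 128.5 in untreated knockout colon, and between 126.5 and 128.0 in TNBS-treated and 127.7 and 128.3 in untreated wild-type colon. Of 10 enteroendocrine genes, from another rare epithelial lineage, 0 passed in the knockout and 4 fell in wild type, among them Neurod1 (log2 difference -0.77 ± 0.14, limma adjusted p = 0.000856) and Chga (-0.61 ± 0.17, limma adjusted p = 0.0164). Of 8 goblet cell genes 2 rose and 0 fell in the knockout and 2 rose and 1 fell in wild type, and of 8 smooth muscle genes 0 rose in the knockout and 1 in wild type. In the neuron, epithelial, goblet and smooth muscle lists at most 3 genes passed in either genotype, so little can be read from these counts against the shares of all genes.

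With the mean of a list added to the fit, the wild-type difference of 1424271_at was 0.52 with the epithelial list (limma adjusted p = 0.0974), 0.58 with the squamous list (0.0474), 0.70 with the neuron list (0.00457) and 0.64 with the smooth muscle list (0.00294). In the knockout it was 0.34, 0.34 and 0.46 with the first 3 lists and did not pass (limma adjusted p = 0.237, 0.276 and 0.0935), and 0.53 with the smooth muscle list, where it passed (0.0109). With the mast cell list, whose level did not overlap between TNBS-treated and untreated arrays, it was 0.06 ± 0.61 in the knockout and 0.18 ± 0.77 in wild type (SE, limma adjusted p = 1 for each), so that fit left the TNBS term nearly undetermined. No cell type was otherwise tested as a source of the Dclk1 signal.

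Read against all features, no tuft cell marker was called on its main probe set. Il25, Gfi1b and Pou2f3, at or close to the floor, could not be compared, so the counts rest on Dclk1 and Trpm5. Of the 5 measured genes 0 passed limma's test in any of the 5 comparisons, against 8.55% of all genes for TNBS in the knockout, 16.5% for TNBS in wild type, 4.83% for knockout against wild type without TNBS, 10.5% for knockout against wild type with TNBS and 2.00% for the difference of the TNBS effects. At an unadjusted p under 0.05 there were 0, 1 (Trpm5), 1 (Dclk1), 1 (Dclk1) and 0 of 5. Over all 18194 genes 4043, 5010, 3424, 4206 and 2853 had such a p in the same order. Of the 15 probe sets of the 5 genes, 1 rose with TNBS in the knockout and 3 in wild type, all of Dclk1, and 0 fell. Of all probe sets 6.40% and 13.4% were called there in either direction. For knockout against wild type 0 of 15 were called without TNBS and 0 with TNBS, where 3.58% and 9.57% of all probe sets were called. For the difference of TNBS effects 0 of 15 were called, where 1.43% of all probe sets were. At an unadjusted p under 0.05 these last 3 counts were 1, 2 and 0. The share of all probe sets at that unadjusted level was not read. With 5 genes and 15 probe sets, several of which share a source sequence, these counts are too few to separate from the background.

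The genes most like each measurable marker were ranked by Pearson's r over 23 arrays after subtracting group means, as a description with no test. For the main probe set of Dclk1 they were Nxpe2 (0.74), Igkv6-20 (0.73), Gm11346 (0.72), Lat2 (0.71) and Zfp612 (0.70). For Dclk1 probe set 1424271_at, added after its values were seen, they were Col6a1 (0.77), Lama4 (0.76), Anxa6 (0.76), Col6a2 (0.76) and Ptprb (0.74), of which Col6a1 and Col6a2 encode collagen chains and Lama4 a laminin chain. Col6a1 (0.73) and Lama4 (0.71) were also among the 5 for 1436659_at. Neither was among the 5 for 1450863_a_at, 1424270_at or 1451289_at, which were led by Arhgef17 (0.78), Slc6a9 (0.79) and Tspan8 (0.81). For Trpm5 the genes most like it were 2310040G24Rik (0.76), Gm13648 (0.76), Siglecf (0.74), Itgal (0.73) and Tarsl2 (0.72).

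No gene of the taste-type pathway around Trpm5 and Gnat3 passed the test. Of 7 measured genes 0 passed in any of the 5 comparisons, and at an unadjusted p under 0.05 there was 1, in knockout against wild type without TNBS. Gnb3, Tas1r1 and Tas1r3, the G protein subunit and the taste receptor subunits, were at the floor on all arrays. Plcb2, the phospholipase that acts before Trpm5, averaged 3.58 ± 0.04 in TNBS-treated knockout (SD, n = 7), 3.57 ± 0.05 in untreated knockout (n = 5), 3.68 ± 0.11 in TNBS-treated wild-type (n = 6) and 3.79 ± 0.20 in untreated wild-type colon (n = 5). Its lowest adjusted p was for knockout against wild type without TNBS (-0.21 ± 0.07, limma adjusted p = 0.0833). Itpr3, the calcium release channel of the pathway, averaged 8.08, 8.08, 8.12 and 8.02 in the same groups, and its TNBS differences were -0.01 ± 0.06 in the knockout and 0.10 ± 0.06 in wild type (limma adjusted p = 1 and 0.337). Sucnr1 was at the floor on 21 arrays, and Gng13 averaged 2.21 to 2.26 in the groups. The median difference of the 7 genes was 0 in each comparison, as it was over all genes to 2 decimals. With most of the 7 at or close to the floor, that median could hardly differ from 0. Only Plcb2 and Itpr3 could be compared.

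Of 13 other measured genes that tuft cells express, 0 passed with TNBS in the knockout (3 at an unadjusted p under 0.05), while 3 rose and 1 fell with TNBS in wild type, where 10.2% of all genes rose and 6.27% fell. The list's median difference was 0.06 in the knockout and 0.17 in wild type, against 0 over all genes. Avil, an actin-binding protein that marks tuft cells, averaged 3.99 ± 0.27 in TNBS-treated and 3.59 ± 0.32 in untreated knockout colon, a difference of 0.40 ± 0.16 (limma adjusted p = 0.139). It averaged 4.18 ± 0.31 in TNBS-treated and 3.36 ± 0.22 in untreated wild-type colon, where it rose by 0.82 ± 0.17 (limma adjusted p = 0.00213). The TNBS-treated wild-type arrays spanned 3.73 to 4.67 and the untreated ones 3.09 to 3.60, without overlap.

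Il17rb, which encodes the receptor chain for IL-25 and is also expressed by type 2 lymphocytes, averaged 3.80 ± 0.25 in TNBS-treated and 3.54 ± 0.27 in untreated knockout colon, against 4.62 ± 0.65 in TNBS-treated and 3.57 ± 0.19 in untreated wild-type colon. It rose by 1.05 ± 0.24 with TNBS in wild type (limma adjusted p = 0.00415) and differed by 0.26 ± 0.23 in the knockout (limma adjusted p = 0.602). With TNBS it was lower in the knockout by 0.82 ± 0.22 (log2 difference -0.82, limma adjusted p = 0.0189). The test of the difference of TNBS effects did not pass (-0.79 ± 0.33, limma adjusted p = 0.23).

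Krt18, a keratin of simple epithelium that tuft cells hold at high levels and other colon epithelial cells express too, rose by 0.36 ± 0.04 with TNBS in wild type (limma adjusted p = 1.02e-05) and differed by 0.06 ± 0.04 in the knockout (limma adjusted p = 0.485). The effects differed by -0.30 ± 0.06, knockout minus wild type (limma adjusted p = 0.012), and Krt18 was 0.19 lower in the knockout with TNBS (log2 difference -0.19 ± 0.04, limma adjusted p = 0.00331). Ascl2, a factor of intestinal stem cells that is also listed for tuft cells, fell by 0.71 ± 0.22 in wild type (log2 difference -0.71, limma adjusted p = 0.0337) and differed by -0.60 ± 0.21 in the knockout (limma adjusted p = 0.0901). Hmx3 and Chat were at the floor on all arrays. For knockout against wild type, 0 of the 13 passed without TNBS (1 at an unadjusted p under 0.05), and with TNBS Krt18 and Il17rb fell and 0 rose, where 6.72% of all genes were lower and 3.73% higher.

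Several genes that tuft cells share with leukocytes rose with TNBS in each genotype. Of 11 measured, 5 rose with TNBS in the knockout, where 4.08% of all genes rose and 4.47% fell. In wild type 8 rose, where 10.2% of all genes rose and 6.27% fell. The median differences were 0.50 in the knockout and 0.77 in wild type. Alox5ap, needed for leukotriene synthesis, rose by 1.00 ± 0.19 in the knockout and by 1.83 ± 0.19 in wild type (limma adjusted p = 0.00312 and 3.22e-06). Pik3r5, a regulatory subunit of a phosphoinositide kinase, rose by 0.95 ± 0.23 and 1.49 ± 0.24 in the same order (limma adjusted p = 0.0139 and 0.000243). Lrmp rose by 0.83 ± 0.24 and 1.29 ± 0.25 (limma adjusted p = 0.0368 and 0.00129), and Ptprc, the common leukocyte antigen, by 0.82 ± 0.21 and 1.12 ± 0.22 (limma adjusted p = 0.0201 and 0.00144). With TNBS 5 of the 11 were lower in the knockout, where 6.72% of all genes were lower. Among the 5 were Alox5ap, by 1.02 ± 0.18 (log2 difference -1.02, limma adjusted p = 0.0012), and Fyb, an adaptor of T cells, with a log2 difference of -0.93 ± 0.19 (limma adjusted p = 0.00329). Without TNBS 0 of the 11 passed between the genotypes (2 at an unadjusted p under 0.05).

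Siglecf, a lectin of eosinophils that tuft cells express as well, averaged 4.36 ± 0.25 in TNBS-treated and 4.15 ± 0.30 in untreated knockout colon, against 5.37 ± 0.59 in TNBS-treated and 3.68 ± 0.47 in untreated wild-type colon. It rose with TNBS in wild type (1.69 ± 0.25, limma adjusted p = 0.00012) and differed by 0.21 ± 0.24 in the knockout (limma adjusted p = 0.74), and these effects differed by -1.48 ± 0.35 (limma adjusted p = 0.0328). Of the genes measured in the tuft cell lists and the type 2 list, it and Krt18 were those whose TNBS effects differed past the threshold between the genotypes.

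**Figure D4:**
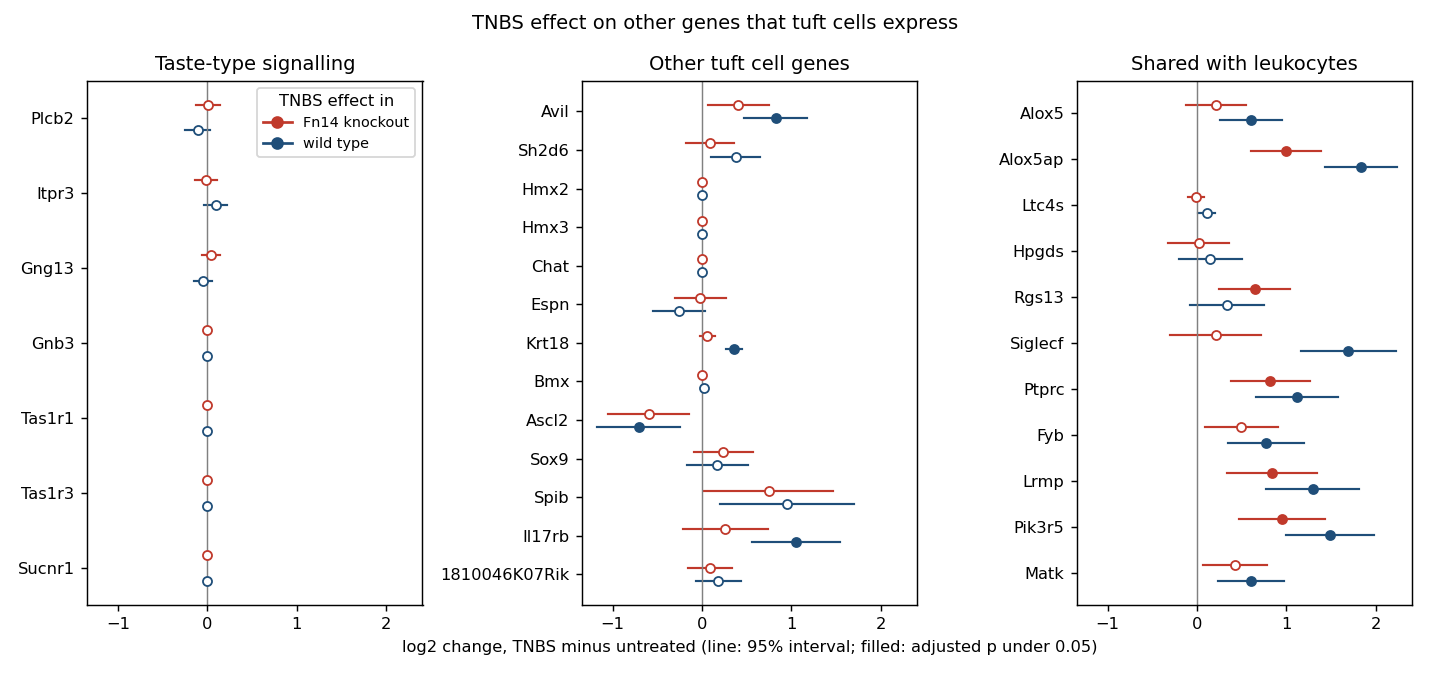
Log2 difference, TNBS minus untreated (x axis), of other genes that tuft cells express (y axis), in 3 panels: taste-type signalling, other tuft cell genes and genes shared with leukocytes; points are limma estimates for Fn14 knockout and wild-type colon, lines 95% intervals, and filled points have an adjusted p under 0.05 over all genes. No gene of the taste-type panel is filled, while 8 of 11 genes shared with leukocytes are filled in wild type and 5 in the knockout.

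The type 2 circuit into which IL-25 feeds was also read. Of 13 measured genes 3 rose with TNBS in the knockout, where 4.08% of all genes rose, and 7 in wild type, where 10.2% did, with median differences of 0.11 and 0.26. The cytokines themselves were at or near the floor: Il5 was there on all 23 arrays, Il9 on 22, Il13 on 20 and Il4 on 18. Genes that IL-13 is known to raise in epithelium and stroma were well measured. Retnlb, a goblet cell protein, averaged 12.59 ± 0.27 in TNBS-treated and 10.81 ± 0.35 in untreated knockout colon, a rise of 1.78 ± 0.17 (limma adjusted p = 1.34e-06). It averaged 13.43 ± 0.13 in TNBS-treated and 11.64 ± 0.37 in untreated wild-type colon, a rise of 1.79 ± 0.17 (limma adjusted p = 8.34e-07).

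Retnlb was lower in the knockout with and without TNBS (log2 differences -0.83 ± 0.16 and -0.83 ± 0.18, limma adjusted p = 0.00211 and 0.0117), and it was the 1 gene of the list that passed between untreated genotypes. Il13ra2, the decoy receptor of IL-13, rose by 1.34 ± 0.29 in the knockout and 2.06 ± 0.30 in wild type (limma adjusted p = 0.00737 and 9.82e-05), and with TNBS it was lower in the knockout (-0.87 ± 0.28, limma adjusted p = 0.0488). Clca1, a goblet cell product, rose by 0.23 ± 0.04 and 0.26 ± 0.04 in the same order (limma adjusted p = 0.00134 and 0.000194). Il4ra, the receptor chain shared by IL-4 and IL-13, rose by 0.80 ± 0.13 in wild type (limma adjusted p = 0.000267), differed by 0.22 ± 0.13 in the knockout (limma adjusted p = 0.322) and was lower in the TNBS-treated knockout than in TNBS-treated wild type (-0.60 ± 0.12, limma adjusted p = 0.00296). For the difference of TNBS effects 0 of the 13 passed limma's test (1 at an unadjusted p under 0.05).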

How the data were processed

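Total RNA of 23 mouse colon samples was measured on Affymetrix arrays. The authors deposited log2 expression values per probe set, for 45101 probe sets. Per the submitters' processing notes RMA and GCRMA were used, and which of them made these values, with its version and genome build, was not given in the sources used here. Values at the floor understate differences. Array medians lay between 4.12 and 4.26, and no 2 arrays held identical values.

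Groups came from the sample titles. Names came from the platform annotation, in which 34958 probe sets named 1 gene, 932 several and 9211 none, and the first kind was used, for 18194 genes. In limma 3.58.1 all arrays entered 1 linear model with a mean for each group (lmFit and eBayes, 19 residual and 0.475 prior degrees of freedom) under R 4.3.3, with Benjamini-Hochberg adjustment over all genes or, where said, over all probe sets, at 0.05. Two-sided exact permutation tests (scipy 1.17.1) were used for differences between probe sets. The procedure was tested on simulated data, with shifts only in genes above the median level and normal noise without a floor. That test does not cover genes near the floor. Alternatives were to leave out each array, to block on the replicate number, to fit the compared groups by themselves, to weight arrays, to drop dim probe sets (fewer than 5 arrays above log2 4), to use trend and robust moderation, to average or to test every probe set, to normalize by quantiles, to centre on medians, to set a floor at log2 5 and to add covariates. Covariates for the neuron, mast cell and smooth muscle lists were chosen after seeing the data.

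The members and gene lists were chosen with earlier results of these data known. Named genes were the 6 members, up to 4 genes with the smallest p of each list in the comparison described, and the 5 genes most like each member that lay more than 0.5 above the floor on most arrays.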

Additional observations from a re-analysis of the deposited data

Results flagged for a closer look

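In 7 of 40 checks of a probe set in a group, 1 array stood far from the others of its group by Dixon's criterion. Chance alone meets it in about 1 of 20 groups of normally distributed values. That rate does not hold for tied values, as at the floor, and groups of constant values could not be flagged. Of the 7 flagged values, 3 were of Dclk1. Probe set 1450863_a_at read 7.1478 in untreated wild-type replicate 4, with the nearest other array at 7.6735. Probe set 1436659_at read 6.0544 in TNBS-treated knockout replicate 7, with the nearest at 6.4429, and probe set 1424270_at read 6.6594 in TNBS-treated knockout replicate 5, with the nearest at 6.1454.

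The other 4 were arrays that left the floor where the rest of their group was on it. Gfi1b read 2.2214 in TNBS-treated knockout replicate 2, 2.1815 in TNBS-treated wild-type replicate 2 and 2.1726 in untreated wild-type replicate 1, and Pou2f3 read 2.1721 in TNBS-treated wild-type replicate 6. Such steps above 2.1711 are too small to count as expression.

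Among 49 genes of the tuft cell and type 2 lists, the effect of TNBS differed between the genotypes for Siglecf (-1.4835, knockout minus wild type, limma adjusted p = 0.0328) and Krt18 (-0.3033, limma adjusted p = 0.012). Over all genes 2.00% passed this test.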

How the results depend on the processing

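Of the 5 measured markers 0 were called in every comparison as reported, and the counts changed in 3 comparisons. For TNBS in the knockout, 1 was called with the mean of all probe sets (Dclk1, 0.18, limma adjusted p = 0.0239). For TNBS in wild type, 1 was called with the mean of all probe sets (Dclk1, 0.23, limma adjusted p = 0.00345), 3 with each array centred on its median (Il25, Gfi1b and Pou2f3, whose constant floor values take on the array medians by construction), and 0 to 1 when arrays were left out in turn. For knockout against wild type without TNBS, 1 (Dclk1) was called with the filter on dim probe sets, with median centring and with the smooth muscle covariate (limma adjusted p = 0.0481), and 0 to 1 when arrays were left out. The other counts were 0 under every alternative run. Over all genes, 1556 were called for TNBS in the knockout (0 to 1931 over the alternatives), 2998 for TNBS in wild type (0 to 9052), 879 for the genotypes without TNBS (288 to 1177), 1902 with TNBS (11 to 2392) and 363 for the difference of TNBS effects (7 to 505). The mast cell covariate gave the lowest of these except without TNBS, where fitting the compared groups alone did, and array weights the highest except for TNBS in wild type, where median centring did. With the Gapdh covariate, the measure of RNA quality, the counts were 813, 3116, 816, 738 and 324 in the same order. Genes named from the other lists were not read under the alternatives. Of 1303 values of Dclk1, its probe sets and Trpm5 under alternatives, 1244 kept their side of the threshold, 39 lost a call and 19 gained one. The other 1 reversed: Dclk1 probe set 1436659_at in wild type was -1.12 with the mast cell covariate, whose level follows TNBS. Only Dclk1 probe sets for TNBS held calls that could be lost. Of 37 alternatives each, 1424271_at lost its call in 8 in the knockout and in 2 in wild type. In wild type 1436659_at lost its call in 3 and 1451289_at in 26. A change of sign with no call before or after counted as kept, as for Trpm5 in wild type (-1.60 with the mast cell covariate).

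Whether the replicate number pairs the samples was not settled. Over 31 same-numbered pairs the correlation of deviations from group means ran from -0.46 to 0.43, with 10 over 0.1. Differently numbered pairs were not read beside them, so these values cannot decide it. With the replicate number as a block 0 markers were called in each comparison. The wild-type difference of Dclk1 probe set 1424271_at was then 0.75 (limma adjusted p = 0.00264). Array number and the floor limit these results: Il25, Gfi1b and Pou2f3 could not be compared.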
